A study of Mus musculus with 12 samples.

Results

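The mitochondrial genome encodes a small set of genes of its own, and their transcripts were followed here in skeletal muscle and testis of Bckdk mutant and wild-type mice. The members were the rows of the deposited expression table whose symbol starts with mt-, 37 of 47730 features: 13 protein-coding genes, 2 ribosomal RNA (rRNA) genes and 22 transfer RNA (tRNA) genes. The study compared mice that differ in Bckdk, whose product phosphorylates and thereby inactivates the enzyme complex that commits branched-chain amino acids to breakdown. The 4 groups of 3 libraries were muscle and testis of Bckdk+/+ mice and muscle and testis of mice labelled BckdkM/M, homozygous for a mutant allele whose making is not given in the sources used here. All were freely fed C57BL/6J males 5 to 6 months of age, the allele having been backcrossed for at least 10 generations, and tissue was taken 6 to 7 hours after lights on. The muscle was gastrocnemius plus plantaris, and both tissues were ground whole, so each library mixed all cell types present. Letters stand for the mouse numbers carried by the table's columns: wild-type mice A, B and C gave both tissues, mutant mice D and F gave both, G gave muscle and E gave testis.

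Mitochondrial DNA is a circle whose heavy and light strands are each transcribed as a long precursor. In most places tRNAs lie between the other genes, and cutting them out releases the rRNAs and messenger RNAs, most of which then receive short poly(A) tails. The messengers encode core subunits of respiratory-chain complexes I, III and IV and of the ATP synthase (complex V), whose other subunits come from nuclear genes, and the tissue with more oxidative capacity usually holds more of these transcripts. The libraries were made from poly(A)-selected RNA and read as pairs of 150 bases. The annotated tRNAs, 59 to 75 bases long, are shorter than 1 read and have no poly(A) tail of this kind, and rRNAs carry very short tails at most, so their counts are not levels on the same footing as those of messengers.

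The deposited values are read counts divided by a size factor for each library (normalised counts), in which 1 read was worth 0.829 to 1.28. The libraries held 12852427 to 15795722 counted reads, of which 1169091 to 1716247 in muscle and 108594 to 121893 in testis lay on the 37 members. Bckdk had normalised counts of 2214 to 2627 in wild-type and 12.4 to 14.8 in mutant muscle, as the labels say. In testis it was 68.0 to 73.3 in wild type and 114 to 138 in the libraries labelled mutant, which goes against that label, whereas the NeoR row (1.76 to 3.34 and 13.1 to 19.9) ran with it, and the testis groups are therefore called by their labels. The 9 skeletal muscle markers summed to 1545520 or more in every muscle library, and the 10 germ cell markers to 169287 or more in every testis library.

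The sequences that matter most for reading these counts come from GENCODE M21 transcripts on GRCm38. A stretch of the mitochondrial genome, positions 6381 to 11042, has a near-identical copy on chromosome 1, minus strand, 24611535 to 24616197, where the annotation lists 7 unprocessed pseudogenes. Between mt-Nd3 (mitochondrial positions 9459 to 9806) and its copy Gm28438, only 1 of 345 compared bases differed, T3C counted from the 5′ end of mt-Nd3, and the capital marks it in the opening 33 bases of each:
mt-Nd3: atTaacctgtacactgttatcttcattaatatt
Gm28438: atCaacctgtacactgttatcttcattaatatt
The next sequence is all of mt-Atp8, which lies inside the copied stretch and whose last 43 bases, in capitals, also belong to mt-Atp6:
mt-Atp8: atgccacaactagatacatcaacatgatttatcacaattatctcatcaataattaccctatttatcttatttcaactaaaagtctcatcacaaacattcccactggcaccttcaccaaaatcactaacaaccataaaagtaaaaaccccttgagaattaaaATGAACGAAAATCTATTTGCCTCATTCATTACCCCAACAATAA
The following tRNA genes are shown because their counts lay at the extremes: mt-Ts1 (serine), mt-Tp (proline) and mt-Te (glutamate) had the most reads among tRNAs, and mt-Tk (lysine) and mt-Tg (glycine) had none. In mt-Ts1 the capitals mark the 3 bases that lie opposite the end of mt-Co1 on the other strand; the rest carry no mark:
mt-Ts1: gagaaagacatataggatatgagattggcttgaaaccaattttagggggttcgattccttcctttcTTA
mt-Tp: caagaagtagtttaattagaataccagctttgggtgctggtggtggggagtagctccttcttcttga
mt-Te: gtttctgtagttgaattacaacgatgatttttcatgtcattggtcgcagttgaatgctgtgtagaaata
mt-Tk: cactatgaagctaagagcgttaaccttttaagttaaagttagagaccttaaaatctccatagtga
mt-Tg: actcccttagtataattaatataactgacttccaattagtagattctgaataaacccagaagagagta

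Protein-coding members took 91.9% of all reads on members over the 12 libraries, rRNAs 6.95% and tRNAs 1.20%. To compare levels between genes, normalised counts were divided by gene length in kilobases, and all means below are over 3 libraries with the SD. In wild-type muscle mt-Co1, the catalytic subunit of cytochrome c oxidase (complex IV), led with 300373 ± 3505 per kilobase. It was followed by mt-Cytb, the cytochrome b of complex III, with 197037 ± 18514, and by the complex I subunit mt-Nd1 with 193225 ± 22089, and these last 2 did not differ beyond their spread. Further complex I subunits came next: mt-Nd2 at 131472 ± 6671, mt-Nd6 at 96292 ± 10158, mt-Nd4 at 74284 ± 8384 and mt-Nd5 at 71972 ± 4642. Within that order mt-Nd4 and mt-Nd5 overlapped. The large rRNA mt-Rnr2 had 42524 ± 2796 and the small rRNA mt-Rnr1 had 26471 ± 3721.

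The levels then dropped. The complex IV subunits mt-Co2 and mt-Co3 stood at 7999 ± 876 and 6995 ± 1108 per kilobase, with overlapping libraries, and mt-Atp6, a proton-channel subunit of the ATP synthase, at 2910 ± 686. The lowest were mt-Atp8 (ATP synthase) at 1742 ± 1833, mt-Nd3 (complex I) at 1004 ± 181 and mt-Nd4l (complex I) at 834 ± 922, whose ranges overlapped. Single libraries set the wide SDs: mt-Atp8 was 182, 99.5 and 784 normalised counts in the wild types (mice A to C), and mt-Nd4l was 77.4, 102 and 564. Mutant muscle gave 228, 844 and 220 for mt-Atp8 in mice D, F and G, and 78.7, 159 and 151 for mt-Nd4l. Thus wild-type C was high for both genes, and mutant F for mt-Atp8 alone.

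In wild-type testis the order was much the same at lower levels. mt-Co1 led with 29011 ± 43.9 per kilobase, followed by mt-Nd1 at 11289 ± 278 and mt-Cytb at 10332 ± 350, which there did not overlap. mt-Nd2 had 5584 ± 213, mt-Nd5 4915 ± 126, mt-Nd6 4311 ± 188 and mt-Nd4 3343 ± 189. The same 6 genes stood last, from mt-Co2 at 500 ± 48.3 to mt-Nd4l at 20.8 ± 10.3.

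**Figure D1:**
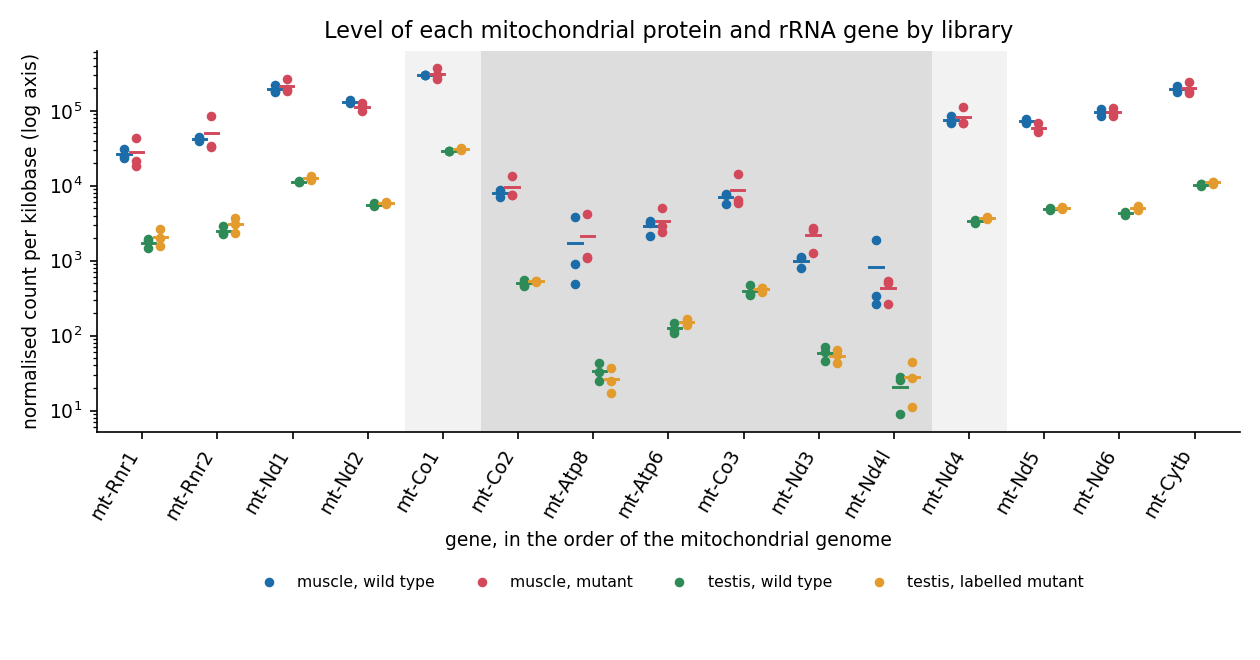
Normalised count per kilobase of gene length (log axis) for the protein-coding and rRNA members in the order of the mitochondrial genome; points are libraries, bars are means of 3 libraries, and colours are the 4 groups. Dark grey marks the 6 genes that lie inside the stretch copied on chromosome 1 and light grey the 2 that lie partly inside; in wild-type muscle the genes in dark grey sit between 834 and 7999 and the protein-coding genes on white between 71972 and 197037.

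The drop coincided with the copied stretch. Inside it lie 6 protein-coding genes (mt-Co2, mt-Atp8, mt-Atp6, mt-Co3, mt-Nd3 and mt-Nd4l) and 5 tRNA genes, mt-Co1 and mt-Nd4 lie partly inside, and 24 members lie outside. In wild-type muscle the median level of the 6 inside was 2326 per kilobase and that of the 5 protein-coding genes outside was 131472, a ratio of 56.5. The ratio was 40.3 in mutant muscle, 60.9 in wild-type testis and 57.3 in the testis libraries labelled mutant. These ratios describe genes that differ in more than the copy, and how reads that match both places were treated is not given in the sources used here, so the part of the copy in the drop was not tested. Levels of the 8 genes that touch the stretch are uncertain for that reason.

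Some pseudogenes, among them those of mt-Co2, mt-Co3 and mt-Atp6, held reads of the same order as the genes they match, while those of mt-Co1 and mt-Nd4 held far fewer. For mt-Co2, whose compared bases were identical to those of Gm28661, wild-type muscle had 5471 ± 599 normalised counts on the gene and 4908 ± 763 on the pseudogene. For mt-Co3 and Gm28437, also identical, these were 5484 ± 869 and 7984 ± 2813. mt-Atp6 had 1982 ± 467 and Gm10925 had 4975 ± 331, so the pseudogene held more. Gene and pseudogene together came to 15174 per kilobase for mt-Co2 and 17179 for mt-Co3, still below each protein-coding and rRNA gene outside the stretch. For mt-Co1, only 31.8% of which is covered by the copy, Gm29216 held 1197 ± 186 against 464076 ± 5415 on the gene. For mt-Nd4, 63.6% of which is covered with identical bases, Gm28439 held 1920 ± 216 against 102363 ± 11553 on the gene. All 6 annotated copies on the list were higher in wild-type muscle than in wild-type testis at an adjusted p below 0.05 in limma, with a median log2 difference of 4.04. In this comparison 87.9% of all genes tested were called, so the calls do not set the copies apart. The list left out Gm10222, the copy of mt-Nd4l, which had 98.1 ± 7.11 in wild-type muscle and 8.49 ± 2.97 in wild-type testis.

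Transfer RNA reads were split by strand. The 8 tRNA genes on the light strand all had reads, 100287 in the 12 libraries together, whereas the 14 on the heavy strand had 493. Among the latter, 7 (mt-Tf, mt-Tv, mt-Tk, mt-Tg, mt-Tr, mt-Th and mt-Tl2) had 0 reads in every library, which allows up to 3 reads, or 2.33e-05% of the shallowest library, as far as counting error goes. mt-Ts1 alone had 78069 reads, with 10838, 10613 and 14396 normalised counts in wild-type muscle and 11460, 10601 and 22105 in mutant muscle. mt-Tp came next with 11893 reads and mt-Te with 5220, then mt-Tq (glutamine) with 3375 and mt-Ty (tyrosine) with 1418. The strand setting of the counting is not given in the sources used here, so reads of a light-strand gene and of the heavy-strand transcript across it cannot be told apart. This holds for the tRNAs named here and for mt-Nd6, the only protein-coding gene on the light strand, whose end overlaps mt-Nd5 by 14 bases. mt-Ts1 lies inside the copied stretch too, and its counts were above those of mt-Co2 in every library. Its end lies opposite the end of mt-Co1, and the part of that transcript in its counts was not tested.

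Muscle gave a larger part of its reads to mitochondrial transcripts than testis. The members took 8.21%, 8.13% and 7.91% of counted reads in the wild-type muscles and 0.768%, 0.756% and 0.783% in the testes of the same mice A to C. The means of 8.08% ± 0.157 and 0.769% ± 0.0133 differed 10.5-fold, and no library of one tissue came near the other. An exact two-sided permutation test gave p = 0.1, the smallest that 3 against 3 allows, and p = 0.2 after adjustment over 4 comparisons. It took the tissues of the same mouse as independent, as did the other permutation tests between tissues. In the other genotype the shares were 8.95% ± 2.22 in mutant muscle and 0.802% ± 0.0383 in the testis libraries labelled mutant, an 11.2-fold difference (exact p = 0.1). In bulk tissue, fewer cells of a type and less RNA per cell cannot be told apart, and testis consists mostly of germ cells.

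**Figure D2:**
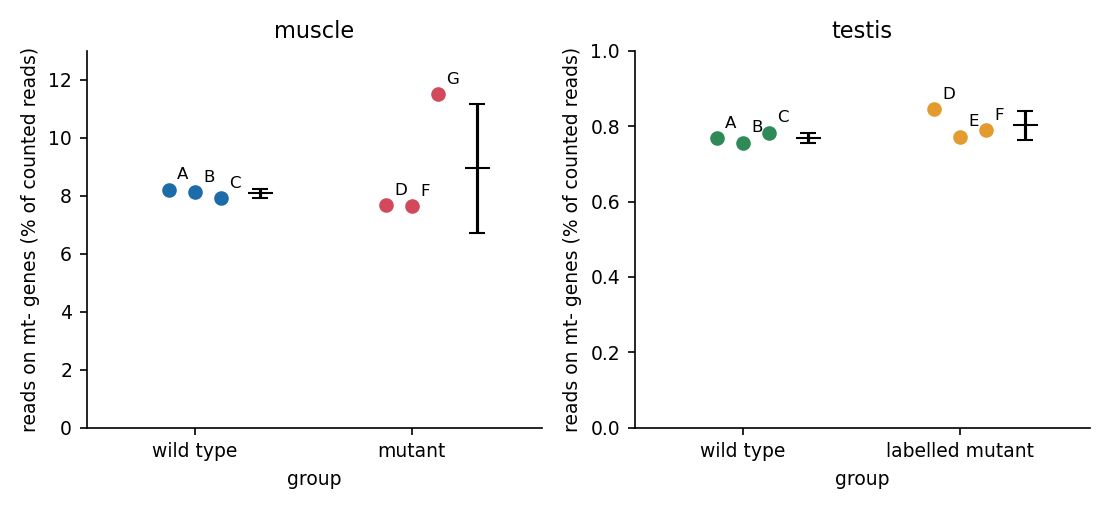
Percent of counted reads on the 37 mt- genes in each library (letters are mice), with the mean ± SD of 3 libraries in black; the vertical scales of muscle and testis differ. Mutant muscle library G stands at 11.5%, the other 5 muscle libraries between 7.65% and 8.21%, and the testis libraries between 0.756% and 0.845%.

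Gene by gene, the difference between tissues ran the same way throughout. A member was tested where 3 or more of the libraries compared held a normalised count of 10 or above. Of 23 tested between wild-type tissues, 5 (mt-Atp8, mt-Nd4l, mt-Tw, mt-Ta and mt-Tt) passed only through muscle, where they were high, so their direction was fixed by the filter. The other 18 reached 10 in every library of both tissues. Of these, 18 were higher in muscle at an adjusted p below 0.05 in limma's test on log2(normalised count + 1). Over all 19994 genes tested 87.9% were called in this comparison, so the call itself does not set the members apart. The median log2 difference of the 18 was 4.09, against -0.48 for all genes tested. Between mutant muscle and the testis libraries labelled mutant, 6 of 24 tested members (the same 5 and mt-Ti) owed their place to muscle. Of the 18 others 18 were called higher in muscle, with a background of 85.9% of genes called, and their median log2 difference was 4.11 against -0.48.

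The size of the difference varied among members. mt-Co1, the most abundant, had 458127, 465386 and 468716 normalised counts in wild-type muscle and 44846, 44875 and 44746 in wild-type testis. This was the smallest difference among protein-coding members, 3.37 on the log2 scale (SE 0.26, adjusted p = 3.89e-06 in limma). mt-Nd2, a membrane subunit of complex I, had 130370, 135037 and 143996 in muscle and 5786, 5581 and 6023 in testis. Its log2 difference was 4.56 (SE 0.13, adjusted p = 1.23e-08). mt-Nd6 had 54855, 44384 and 50687 against 2309, 2126 and 2276, a log2 difference of 4.48 (SE 0.11, adjusted p = 6.28e-09). None of these groups overlapped. mt-Atp8 had the largest value, 4.99, with an SE of 0.68, since its testis counts were 8.82, 5.00 and 6.68, and near such counts the added 1 understates a fold. The 7 complex I members ranged from 3.87 (mt-Nd5) to 4.65 (mt-Nd4l), mt-Cytb stood at 4.25, the 3 complex IV members at 3.37 to 4.14 and the 2 ATP synthase members at 4.51 and 4.99.

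Among rRNAs and tRNAs the differences were of the same order. mt-Rnr1 had a log2 difference of 3.92 and mt-Rnr2 of 4.09 between the wild-type tissues. The 5 tRNAs that reached the filter in both tissues ranged from 3.87 for mt-Ty to 4.74 for mt-Te. The most different of them, mt-Te, had 903, 997 and 1176 normalised counts in wild-type muscle and 37.9, 43.3 and 30.9 in wild-type testis. mt-Ti (isoleucine) passed the filter only through mutant muscle, where it had 11.4, 11.2 and 12.4. With 0 reads in each testis library labelled mutant, its fold is a lower bound, at least 4.29-fold higher in muscle against 3 reads per library.

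Nuclear genes for the same complexes were also higher in muscle, by less in the median. Over all 19994 genes tested 87.9% were called between the wild-type tissues, 7464 genes higher in muscle and 10111 lower. Being called therefore does not by itself set these subunits apart. All 37 nuclear complex I subunits tested were called higher in wild-type muscle than in testis, with a median log2 difference of 2.50 beside 4.47 for the 7 mitochondrial ones. Ndufb11, an accessory subunit of complex I, had 4.94 (SE 0.14). For complex III 9 of 9 were called higher, with a median of 2.73 beside 4.25 for mt-Cytb, and the smallest p were those of Cyc1, cytochrome c1, with 3.88 (SE 0.09) and Uqcrb with 3.25 (SE 0.10). For complex V 15 of 15 were called higher, with a median of 3.06 beside 4.75, among them Atp5c1, the ATP synthase gamma subunit, at 3.06 (SE 0.09) and Atp5g2, a subunit c gene, at 3.95 (SE 0.12). Complex IV was mixed, with 12 of 16 nuclear subunits called higher, 2 called lower and a median of 2.35 beside 3.99. Cox7b had a log2 difference of 5.62 (SE 0.16), while Cox6b2 and Cox8c, known as testis forms of their subunits, were lower in muscle by log2 differences of -5.74 (SE 0.17) and -6.25 (SE 0.22). In the libraries labelled mutant the nuclear medians were 2.48, 2.88, 2.55 and 2.96 for complexes I, III, IV and V, and the mitochondrial ones 4.22, 4.16, 4.11 and 5.13. The mitochondrial medians of complexes I and V include mt-Nd4l and mt-Atp8, which passed the filter only through muscle. Without mt-Atp8, complex V is left with mt-Atp6 alone, at 4.51 in wild type and 4.42 in the other genotype. Nuclear subunits that passed the filter only through muscle or only through testis are not set apart here. No test compared the mitochondrial and nuclear sets of genes, and the lists were chosen with results of these data known.

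**Figure D3:**
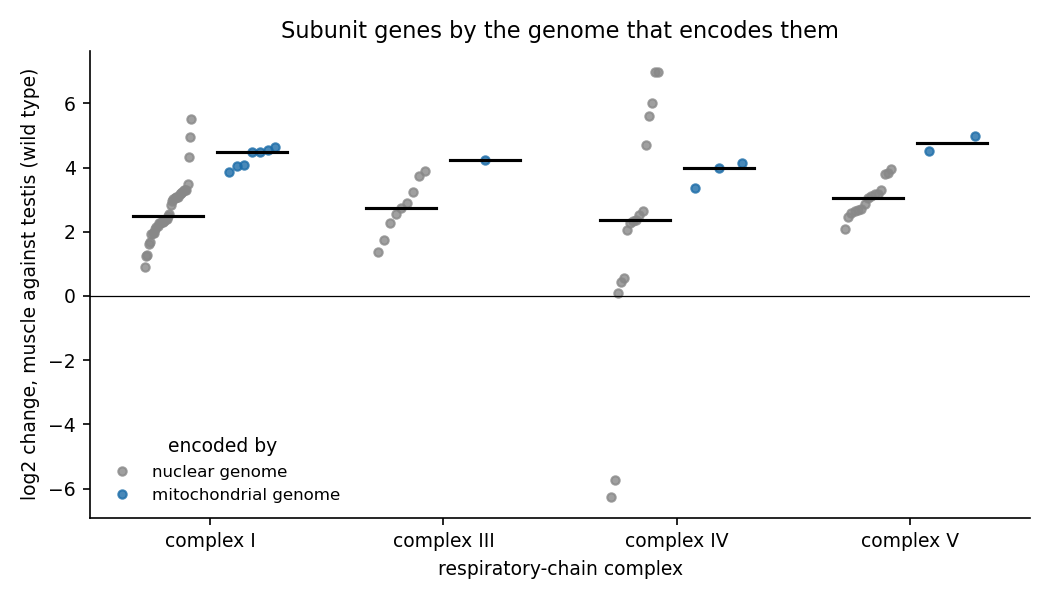
Log2 difference of muscle against testis in wild-type mice for each tested subunit gene of complexes I, III, IV and V, split by the genome that encodes it; black bars are medians. The mitochondrial medians (4.47, 4.25, 3.99 and 4.75) lie above the nuclear ones (2.50, 2.73, 2.35 and 3.06), and the points near -6 are Cox6b2 and Cox8c. Among the mitochondrial points, mt-Nd4l (complex I) and mt-Atp8 (complex V) passed the filter only through muscle.

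The make-up of the mitochondrial reads also differed between tissues. Each protein-coding and rRNA member was expressed as a percent of all reads on members in its library, a measure that does not depend on scaling between libraries. mt-Co1 took 33.6%, 33.5% and 31.2% in wild-type muscle and 46.5%, 47.5% and 45.4% in wild-type testis, which did not overlap. mt-Nd2 went the other way, with 9.57%, 9.73% and 9.59% in muscle and 6.00%, 5.91% and 6.11% in testis. mt-Nd4 took 7.21% ± 0.43 in muscle and 4.77% ± 0.17 in testis, and mt-Nd6 3.53% ± 0.44 and 2.32% ± 0.07. mt-Cytb took 15.9% ± 0.70 and 12.3% ± 0.17, and mt-Nd1 12.4% to 13.9% and 11.0% to 11.3%. Thus 6 of 15 members did not overlap between wild-type tissues, 5 with a larger share in muscle and mt-Co1 with a smaller one. Shares within a library have a fixed total, so a smaller share of mt-Co1 by itself raises the others. The 5 larger shares are therefore not separate gains, and the same limit holds for every comparison of shares and for scaling to reads on members. By complex, complex IV took 33.6% of member reads in wild-type muscle and 47.2% in wild-type testis, and complex I 42.7% and 33.6%. The complex IV difference was that of mt-Co1, which held 32.8% and 46.5%. The means of mt-Co2 (0.386% and 0.355%) and mt-Co3 (0.387% and 0.322%) were higher in muscle, with overlapping libraries, and both genes lie in the copied stretch. mt-Nd5 took 9.28% ± 0.78 and 9.29% ± 0.06. Without wild-type muscle B the shares without overlap numbered 12, and without wild-type testis A 10.

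Between mutant muscle and the testis libraries labelled mutant, 11 of 15 shares did not overlap, and mt-Co1 was again the one with a smaller share in muscle (33.4% ± 1.14 and 45.7% ± 0.58). No share could pass an exact permutation test, since 3 against 3 gives p = 0.1 at best and the lowest adjusted p were 0.25 in wild type and 0.136 in the other genotype. With libraries scaled to their reads on members, limma over all genes called 10 of 23 members in wild type: 8 were higher in muscle and mt-Co1 (log2 -0.50, adjusted p = 0.000308) and mt-Tw, the tryptophan tRNA (-0.75, adjusted p = 0.0127), were lower. Under this scaling 95.2% of all genes were called, with a median of -4.28. In the other genotype it called 9 of 24, beside 93.2% of all genes, with mt-Co1 at -0.45 (adjusted p = 0.0393) the only one lower in muscle. The calls include mt-Tw in wild type and mt-Ti and mt-Atp8 in the other genotype. These members passed the filter only through muscle, so their calls carry no weight. Thus mt-Co1 was higher in muscle relative to all transcripts and lower relative to the other mitochondrial transcripts.

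**Figure D4:**
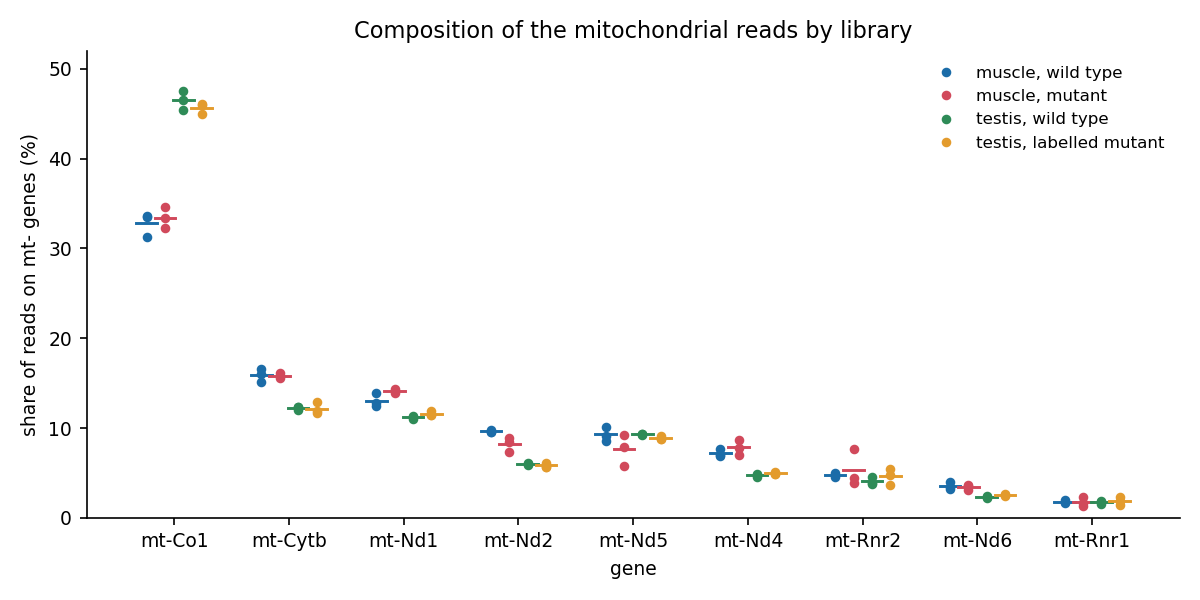
Share of the reads on mt- genes taken by the 9 members with the largest shares, in percent; points are libraries, bars are means of 3 libraries, and colours are the 4 groups. mt-Co1 takes 31.2% to 34.6% in the muscle libraries and 45.0% to 47.5% in the testis libraries, and mt-Nd2 more in each muscle library than in any testis library.

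Between genotypes in muscle no member was called. Of 24 members tested, 14 had a higher and 10 a lower mean log2 value in the mutants, with a median log2 difference of 0.03 against -0.04 for all genes, and limma called none at an adjusted p below 0.05, where 0.0369% of all 16246 genes tested were called. At an unadjusted p below 0.05 there were 3 members, mt-Nd3, mt-Ti and mt-Ty, or 2 of the 23 left without mt-Ti, which passed the filter only through the mutants. Of all genes tested 9.52% had such a p. edgeR's quasi-likelihood test on the recovered reads called none and DESeq2 called 1, mt-Nd3, where it called 0.222% of all genes. The groups did not overlap for 3 of the 24 (12.5%), or 2 of the 23 without mt-Ti, beside 14% of all genes tested, so such separation was about as common as elsewhere. By class, 9 of 13 protein-coding members, 1 of 2 rRNAs and 4 of 9 tested tRNAs had a higher mean.

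The member with the smallest p was mt-Nd3, a small complex I subunit with a loop near the ubiquinone site. Wild-type muscle held 278, 375 and 395 normalised counts of it (mice A to C), mutant muscle 444, 961 and 894 (mice D, F and G). All 3 mutants lay above the wild types, D only just. The log2 difference was 1.07 (SE 0.27, adjusted p = 0.519 in limma). It was 1.20 with DESeq2 (adjusted p = 0.0043), 1.42 without mutant D (adjusted p = 0.00782 in limma), where 3.11% of all genes were called. With 2 or more libraries in each group, adjusted p ran from 0.0043 to 0.947 over the settings tried. Without F and G the difference was 0.36, but mutant D then stood alone and was assumed to vary like the wild types. As a share of member reads, mt-Nd3 was 2.20 times as high in mutant muscle.

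The pseudogene Gm28438, which differs from mt-Nd3 by the capital base printed above, overlapped between the genotypes. It had 264, 305 and 759 in wild-type muscle and 267, 316 and 840 in mutant muscle, where wild-type C and mutant G stood high. The sum of gene and copy was 542, 681 and 1154 in wild type and 710, 1276 and 1734 in mutants, and these groups overlapped. With copies added to their genes, the log2 difference of mt-Nd3 was 0.63 (adjusted p = 0.54 in limma). mt-Nd3 itself made up 51.3%, 55.2% and 34.3% of the sum in wild-type and 62.4%, 75.3% and 51.6% in mutant muscle. How the authors' counting divided reads between these places is not given in the sources used here, and its part in the difference was not tested.

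**Figure D5:**
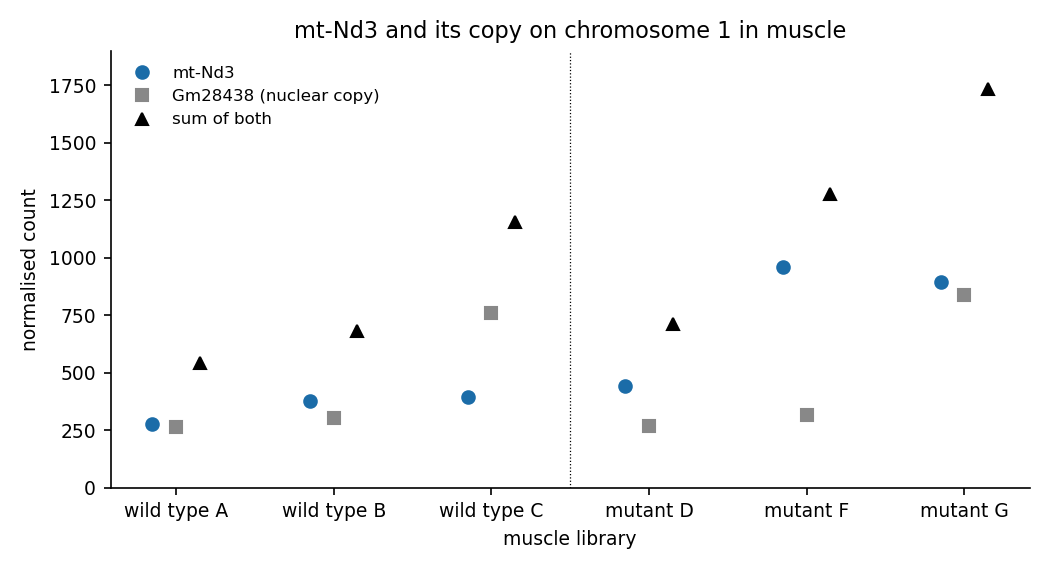
Normalised counts of mt-Nd3, of its chromosome 1 copy Gm28438 and of their sum in the 6 muscle libraries. mt-Nd3 lies between 278 and 395 in wild types and between 444 and 961 in mutants, whereas the sums overlap (542 to 1154 and 710 to 1734).

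Other members also differed in some muscle libraries. mt-Nd2 was 130370, 135037 and 143996 in wild type and 120637, 102618 and 130118 in mutants, and its share of member reads lay below the wild-type range in each mutant library (8.94%, 8.47% and 7.32%, against 9.57% to 9.73%). It was the only member besides mt-Nd3 whose shares did not overlap, 2 of 15. The smallest adjusted p of the 15 shares was 0.75 in the exact permutation test. By normalised count, a different measure, 14% of all genes tested did not overlap. mt-Nd5 was 124124, 140626 and 129083 in wild type and 124565, 95061 and 102643 in mutants, with D inside the wild-type range. mt-Ty had a log2 difference of -0.73 (SE 0.26, adjusted p = 0.519 in limma), from 198, 354 and 358 to 133, 179 and 227, which overlapped. mt-Ti had 5.69, 2.16 and 2.57 in wild type and 11.4, 11.2 and 12.4 in mutants, 12 reads or fewer per library and a log2 difference of 1.58 (SE 0.60, adjusted p = 0.519 in limma). It passed the filter only through the mutants, so its direction was fixed by the filter.

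Mutant muscle library G stood apart. The members took 11.5% of its reads and 7.68% and 7.65% in mutants D and F, so the mutant mean of 8.95% ± 2.22 was 1.11 times that of wild type (exact two-sided permutation test, p = 1) and 0.948 times without G. In G mt-Rnr2 had 135704 normalised counts, against 52286 to 71474 in the other muscle libraries, and mt-Rnr1 had 41959 against 17460 to 29275. The protein-coding mt-Co1 was 573831 in G and 404633 to 468716 in the others, whereas mt-Nd5, at 102643, was not high there. Library G also held the most transcripts of fat cells: the 7 adipocyte markers, none of them at 0, summed to 86174, against 8364 to 36321 in the other muscle libraries. Its 6 markers of brown fat and heart summed to 4637 against 565 to 2081, and its 9 skeletal muscle markers to 1545520 against 2158910 to 2912930. The 6 pancreatic islet markers, none at 0, summed to 29333 in F and 27671 in G and to 12235 to 14276 in the other muscle libraries, and F and G were the libraries with most mt-Nd3. Slow-twitch fibre markers, none of 10 at 0, summed to 2833, 10553 and 3744 in wild-type muscle (mice A to C) and to 8136, 10027 and 10923 in mutant muscle (mice D, F and G). All 10 had a higher mean log2 value in mutants, with a median log2 difference of 1.61. Of these, 8 had an unadjusted p below 0.05 in limma, beside 9.52% of all genes tested, and 0 were called. Red blood cell markers, none of 5 at 0, did not overlap between genotypes, with 2724 to 2867 in wild-type and 3623 to 6001 in mutant muscle. The part of these cell types in the mitochondrial values was not tested.

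In testis no member was called between the labelled genotypes. Of 18 members tested, 15 had a higher mean log2 value in the libraries labelled mutant (83.3%, beside 59.6% of all genes tested), with a median log2 difference of 0.11 against 0.03. Scaled to reads on members, 9 of 18 were higher. limma called none, where 0.0205% of 19543 genes were called, edgeR and DESeq2 called none, and 4 members (mt-Nd6, mt-Nd1, mt-Nd4 and mt-Co1) had an unadjusted p below 0.05, as did 7.09% of all genes tested. The groups did not overlap for 5 of 18 (27.8%), beside 13.4% of all genes tested: mt-Nd1, mt-Co1, mt-Nd4, mt-Nd6 and mt-Cytb, all higher in the libraries labelled mutant. These members share their libraries, so they are not 5 separate observations.

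mt-Nd6, the complex I subunit encoded on the light strand, had the smallest p. Its normalised counts were 2309, 2126 and 2276 in wild-type testis (mice A to C) against 2821, 2655 and 2480 under the mutant label (mice D to F). The log2 difference was 0.24 (SE 0.06, adjusted p = 0.673 in limma). mt-Nd1, with 10646, 10655 and 11111 against 13006, 11545 and 11826, differed by 0.16 (SE 0.05, adjusted p = 0.696 in limma). mt-Nd4, with 4638, 4332 and 4851 against 5285, 5162 and 5031, also differed by 0.16 (SE 0.05, adjusted p = 0.696 in limma). mt-Co1 differed by 0.09 (SE 0.04, adjusted p = 0.699 in limma), from 44746 to 44875 in wild type and 46383 to 49283 in the libraries labelled mutant, and by -0.03 with libraries scaled to their reads on members. mt-Nd3 was 21.2, 15.8 and 24.2 in wild-type testis and 22.2, 19.1 and 15.1 in the libraries labelled mutant, with no separation.

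The share of reads on members was 0.845%, 0.772% and 0.789% in the testis libraries labelled mutant and 0.756% to 0.783% in wild type. The means of 0.802% ± 0.0383 and 0.769% ± 0.0133 overlapped by library (ratio 1.04, exact two-sided permutation test, p = 0.2). Within the member reads, mt-Nd1 and mt-Nd6 took larger shares and mt-Nd5 a smaller share in each library labelled mutant, 3 of 15 members without overlap. The smallest adjusted p of the 15 shares was 0.5 in the exact permutation test. By normalised count, a different measure, 13.4% of all genes tested did not overlap. Testis libraries also differed in transcripts of skeletal muscle. Its 9 markers summed to 0.273%, 0.0173% and 0.629% of their wild-type muscle mean in wild-type testis (mice A to C) and to 0.555% to 0.619% in the libraries labelled mutant. The islet markers summed to 17248 and 17001 in wild-type A and B and to 9374 to 12128 in the other testis libraries. With wild-type A and B left out mt-Nd6 differed by 0.22, but wild-type C then stood alone, so no call could be read from that fit. The part of the muscle transcripts was not tested.

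No member differed in its genotype contrast between the tissues. Among 18 members tested in a model of all 12 libraries, limma called none, where 0.0136% of 14677 genes were called, edgeR and DESeq2 called none, and 1 had an unadjusted p below 0.05. The median interaction, muscle contrast minus testis contrast, was -0.11 on the log2 scale, beside -0.08 for all genes. It was above 0 for 4 of the 18 members and, scaled to reads on nuclear genes, for 12. mt-Nd3 had the smallest p, with an interaction of 1.18 (SE 0.41, adjusted p = 0.574 in limma), and among the settings tried it was called only without mutant muscle D (1.53, adjusted p = 0.0135, beside 6.57% of all genes called; the other settings reached up to 0.999). With chromosome 1 copies added it was 0.38 (adjusted p = 0.785 in limma).

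The nuclear subunits of the same complexes had no call between genotypes either. In muscle 32 of 37 complex I, 7 of 9 complex III, 15 of 16 complex IV and 12 of 15 complex V subunits had a higher mean log2 value in mutants. Of all genes tested in muscle 44.5% were higher. The medians were 0.14, 0.23, 0.23 and 0.15, beside -0.04 for all genes. An unadjusted p below 0.05 in limma was found for 0, 1, 1 and 0 of them, beside 9.52% of all genes. In testis 37 of 37, 9 of 9, 15 of 16 and 15 of 15 were higher in the libraries labelled mutant, beside 59.6% of all genes tested. Their medians there were 0.18, 0.14, 0.18 and 0.15, beside 0.03 for all genes and 0.11 for the mitochondrial members. There 21, 4, 4 and 6 had an unadjusted p below 0.05 in limma, beside 7.09% of all genes, and none after adjustment over all genes. These subunits share libraries, and the skeletal muscle transcripts named above differed between the same testis libraries; their part was not tested.

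Nuclear genes that make, process and protect mitochondrial RNA did not pass the test between genotypes. In muscle 0 of 15 tested genes of mitochondrial DNA copying and transcription, 0 of 17 of RNA processing and modification, 0 of 17 of polyadenylation, stability and decay and 0 of 8 regulators of mitochondrial biogenesis were called, with median log2 differences of -0.03, -0.15, -0.10 and -0.08. The median of all genes tested was -0.04. limma gave 1 of these genes, Mto1, an unadjusted p below 0.05, beside 9.52% of all genes. The smallest p in these lists were those of Twnk, the mitochondrial DNA helicase (log2 -0.27, SE 0.15), Mto1, an enzyme that modifies mitochondrial tRNAs (-0.32, SE 0.13), and Lrpprc, which stabilises mitochondrial messengers (-0.32, SE 0.15). In the regulator list Gabpb1, a subunit of the nuclear respiratory factor GABP, had 0.22 (SE 0.16). In testis the counts were 0 of 16, 0 of 17, 0 of 17 and 0 of 8. Tfam, which packages mitochondrial DNA and starts its transcription, had 0.14 (SE 0.05) there by label. An unadjusted p below 0.05 in limma was found in testis for 2, 1, 3 and 1 genes of the lists, beside 7.09% of all genes. None of the 4 lists had a call for the interaction either, where 0, 2, 1 and 0 genes had an unadjusted p below 0.05 in limma, beside 8.69% of all genes.

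Between tissues the same lists held genes called in both directions. The calls of 12 of 16, 15 of 17, 12 of 17 and 8 of 8 genes stood beside 87.9% of all genes, so the number of calls does not set the lists apart. In wild type, 8 of 16 copying and transcription genes were called higher in muscle and 4 lower. The transcription factor Tfb2m was higher by 2.53 (SE 0.11) and the nuclease Mgme1 by 2.19 (SE 0.12), whereas Tfam was lower in muscle by -1.49 (SE 0.08) and the primase-polymerase Primpol by -2.65 (SE 0.15). Of 17 RNA processing genes 12 were higher and 3 lower, among them Hsd17b10, a subunit of mitochondrial RNase P (3.38, SE 0.12), and the rRNA methyltransferases Mrm2 (2.68, SE 0.21), Nsun4 (-3.25, SE 0.10) and Tfb1m (-2.24, SE 0.10). Of 17 stability and decay genes 11 were higher and 1 lower, with Grsf1, a protein of mitochondrial RNA granules, at 1.22 (SE 0.07) and Lrpprc at 1.10 (SE 0.08). Of 8 regulators 6 were higher and 2 lower, with Ppargc1a, the coactivator that drives mitochondrial biogenesis, at 3.34 (SE 0.17) and Esrra at 2.89 (SE 0.10) in muscle against Gabpb1 at -1.03 (SE 0.12). The medians of the 4 lists were 0.42, 1.17, 0.61 and 0.68, each above the -0.48 of all genes and below the 4.09 of the mitochondrial members.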

How the data were processed

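RNA-seq was measured in 12 libraries, 3 per tissue and genotype. The authors deposited a table of signal values (normalised counts: whole reads over a size factor of the library) and a table of regularised log2 (rlog) values, per the file headers. Tools in the submitters' processing notes are HISAT2 2.1.0, HTSeq 0.11.2, fastp 0.23.4, DESeq2 1.46.0 and Picard 1.119, with GRCm38.p4, without roles, strand or handling of multiply matching reads. Whole reads were recovered from each library's step, with 100% of values whole to within 0.05. Each comparison was fitted over all genes that reached a normalised count of 10 in 3 or more of its libraries, with limma 3.58.1 (R 4.3.3, eBayes trend, two-sided, log2 of the normalised count + 1) and Benjamini-Hochberg adjustment, called below 0.05. Shares were compared with exact permutation tests, without pairing by mouse. The procedure was tested on simulated data. Alternatives were pseudocounts of 0.5 and 8, other filters and scalings, rlog values, edgeR 4.0.16, DESeq2 1.42.0, left-out libraries and, chosen after seeing the data, chromosome 1 copies added to their genes and testis wild-type A and B left out. Named were all protein-coding and rRNA members, tRNAs past the filter, up to 4 called genes (or 2 with the smallest p) per machinery list and 2 per complex (1 complex I gene is not reported here), with a few chosen after their values were seen (Cox8c, the copies, tRNAs without reads). The members and lists were chosen with earlier results of these data known. The 26 genes with values turned into dates hold no member.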

Additional observations from a re-analysis of the deposited data

How the results depend on the processing

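No paired analysis was possible between genotypes, because wild-type and mutant libraries come from different mice. The main fits between tissues left the mouse out of the model. Mouse numbers of the columns join the tissues, and with the mouse as replicate block the counts were 23 in wild type, 24 in the other genotype and 0 for the interaction, so it changed no call. Deviations of muscle and testis from the same mouse correlated at -0.0359 to 0.00853 across genes. Without 1 library at a time, members called numbered 0 to 1 (muscle genotype and interaction, 1 without mutant D), 0 to 0 (testis genotype), 18 to 23 (tissues, wild type) and 20 to 24 (tissues, other genotype), the lower counts where fewer members passed the filter. The read-share ratios were 0.948 to 1.19, 1.01 to 1.06, 10.4 to 10.6 and 9.56 to 12.0 in the same order without the interaction, and shares without overlap between wild-type tissues numbered 6 to 12 (12 without muscle B, 10 without testis A). DESeq2 called 1 member in muscle. Without the 10 nuclear genes with most reads, the wild-type tissue ratio was 12.6. Scaling to reads on members, which removes their common difference, left 10 of 23 and 9 of 24 members called between tissues. These include mt-Tw in wild type and mt-Ti and mt-Atp8 in the other genotype, which passed the filter only through muscle. In wild type the scaling turned the direction of mt-Tw (-0.75), mt-Ta (-0.80), mt-Co1 (-0.50) and mt-Nd5 (-0.00501). In the other genotype it turned mt-Rnr1 (-0.10), mt-Tw (-0.35), mt-Ta (-0.97), mt-Ty (-0.34), mt-Co1 (-0.45), mt-Nd5 (-0.25) and mt-Tp (-0.0163), and between testis genotypes mt-Co1 (-0.0251). Over all members and settings, 51 of 448 log2 differences changed sign in muscle, 16 of 338 in testis and 51 of 432 for the interaction. Scaling to reads on nuclear genes moved the median of all genes by 0.12 (log2) in muscle, 0.17 for the interaction and -0.37 and -0.19 between tissues, and TMM by 0.16 and 0.14 between tissues. Depth limits the tRNAs: 11 of 22 had fewer than 10 reads in all libraries together.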
